A study of Mus musculus with 4 samples.

Results

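The Gimap genes encode GTPases of immunity-associated proteins, and they were described here in blood progenitors of mice with and without a B-cell acute lymphoblastic leukemia (B-ALL). Every gene symbol starting with Gimap in the deposited gene table was taken, which gave 9 genes of 13978. The genes were taken by symbol alone, but the family was chosen with earlier results of these data known. The hosts of both groups were wild-type CD45.1 mice. The B-ALL environment group, called leukemic hosts from here on, had received 150000 primary tumor cells through the tail vein, taken from a lymph node of 1 leukemic Cd45.2+/+ Ebf1+/- Pax5+/- mouse (LN768), and the PBS control group had received phosphate-buffered saline. After 3 weeks, bone marrow cells of the host with the phenotype KIT+ Lin- CD45.2- CD45.1+ were sorted and their transcripts sequenced in droplets from the 3' end. All tumor cells thus came from a single diseased animal, and the labels give no age or sex of the hosts.

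The files hold 5882 cells per group, with 68391214 unique molecular identifiers (UMIs, each standing for 1 captured transcript) in the PBS control and 76059014 in leukemic hosts. Each group has 2 labelled samples, yet a cell carries only a group prefix, so each group counted as 1 sample and no difference between groups could be tested. Values are therefore levels in CPM, in which UMIs are scaled to library size with a TMM factor, with 95% intervals that cover counting error only. Spread between mice is not in them. The 2 groups shared 18 cell barcodes. Kit, the receptor used in the sort, was at 370 CPM in the control and 206 CPM in leukemic hosts, and Ptprc, which encodes CD45, at 148 and 176 CPM. In these sums over cells, fewer cells of a type and less RNA per cell cannot be told apart, so each comparison is also given within progenitor classes.

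GIMAP proteins share a GTP-binding domain, most of them sit on intracellular membranes such as those of lysosomes, mitochondria or the endoplasmic reticulum, and they are best known from lymphocytes. Gimap5 is required for the survival of peripheral T cells and has been tied to the maintenance of hematopoietic stem cells (HSCs), Gimap1 is required for mature T and B cells, and Gimap4 has been tied to the execution of T cell death. The genes lie side by side, so they can be read as an array of related genes under shared surroundings as well as gene by gene.

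The array spans 123.6 kb on chromosome 6, from 48647234 to 48770851 (GRCm38, GENCODE M21). In chromosome order the members are Gimap8, Gimap9, Gimap4, Gimap6, Gimap7, Gimap1os, Gimap1, Gimap5 and Gimap3. Gimap6, Gimap1os and Gimap3 lie on the minus strand and the others on the plus strand. Of the 9, 8 are annotated as protein coding. Gimap1os is a noncoding transcript antisense to Gimap1, and 36.0% of the exonic bases of Gimap1 and 35.7% of those of Gimap1os overlap on opposite strands. How strand was handled in counting is not given in the sources used here, so UMIs of Gimap1 and Gimap1os are uncertain relative to each other. A readthrough model, Gm28053, overlaps between 3.48% and 6.44% of the exonic bases of Gimap7, Gimap1 and Gimap5 on the same strand. No window of 50 bases in the last 500 bases of the annotated transcripts of a Gimap gene occurred in another Gimap gene. Windows shared with any other gene were 6.01% for Gimap1, 3.53% for Gimap3 and 0% for the others.

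RefSeq promoter windows, 250 bases before to 50 after a start site (GRCm38.p6), were found for 8 of the 9 genes, in 9 windows, since Gimap8 has 2 and none was listed for Gimap1os. The 4 windows printed here belong to Gimap6 (chr6:48708195-48708494, minus strand), Gimap9 (chr6:48675885-48676184, plus strand), Gimap4 (chr6:48684328-48684627, plus strand) and Gimap3 (chr6:48770802-48771101, minus strand). They are shown because Gimap6 and Gimap9 share a short motif yet differed between groups by unlike amounts, and because Gimap4 and Gimap3 had next to no UMIs in the control. Each is read 5′ to 3′ on the gene's strand, and capitals mark letters that match 1 of 4 motifs searched on both strands.
Gimap6: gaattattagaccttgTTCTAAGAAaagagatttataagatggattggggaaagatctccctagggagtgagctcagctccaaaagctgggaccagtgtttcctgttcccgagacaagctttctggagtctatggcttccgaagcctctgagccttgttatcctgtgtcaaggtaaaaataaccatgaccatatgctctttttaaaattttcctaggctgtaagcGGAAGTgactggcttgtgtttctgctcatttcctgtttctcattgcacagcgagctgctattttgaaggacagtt
Gimap9: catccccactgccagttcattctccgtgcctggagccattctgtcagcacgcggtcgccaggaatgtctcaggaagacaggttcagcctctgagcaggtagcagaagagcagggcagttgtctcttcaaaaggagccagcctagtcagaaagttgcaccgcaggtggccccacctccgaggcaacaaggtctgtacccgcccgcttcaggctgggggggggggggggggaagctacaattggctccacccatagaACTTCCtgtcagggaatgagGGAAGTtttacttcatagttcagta
Gimap4: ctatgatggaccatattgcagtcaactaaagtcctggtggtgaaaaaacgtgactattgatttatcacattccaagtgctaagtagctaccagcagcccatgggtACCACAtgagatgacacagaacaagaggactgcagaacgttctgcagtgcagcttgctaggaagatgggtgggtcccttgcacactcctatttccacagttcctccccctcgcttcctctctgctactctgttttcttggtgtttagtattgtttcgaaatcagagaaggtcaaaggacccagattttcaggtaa
Gimap3: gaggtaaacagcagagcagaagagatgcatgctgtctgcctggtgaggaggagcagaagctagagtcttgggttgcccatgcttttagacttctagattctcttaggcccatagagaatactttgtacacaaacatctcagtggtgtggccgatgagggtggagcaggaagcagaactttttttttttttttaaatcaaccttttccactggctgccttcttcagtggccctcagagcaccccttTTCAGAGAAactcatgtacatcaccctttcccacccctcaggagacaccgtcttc

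The core letters bound by ETS factors, GGAAGT, were in the windows of Gimap1, Gimap5, Gimap6 and Gimap9, against 23.8% of all 32841 promoter windows. Those of RUNX factors, TGTGGT, were in the windows of Gimap1, Gimap4 and Gimap7, against 16.8% of all windows. A STAT-type palindrome, TTCNNNGAA, was in a window each of Gimap3, Gimap6, Gimap7 and Gimap8, against 8.30% of all windows. The motif of erythroid GATA factors, here searched as AGATAA, was in none of the 9 windows, against 11.2% of all windows. The search was over both strands. A match describes letters in a window and says nothing of binding.

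Over all cells, the summed level of the 9 genes was 132 CPM (8888 UMIs, interval 129 to 134) in the PBS control and 344 CPM (26506 UMIs, interval 340 to 348) in leukemic hosts. This was a log2 fold of 1.39 (1.35 to 1.42), leukemic hosts over the PBS control. At least 1 Gimap UMI was found in 3628 control cells (61.7%) and 4836 cells of leukemic hosts (82.2%). With every cell thinned to 3000 UMIs, these shares were 33.6% and 58.3%. Of the 9 genes, 8 were higher by over 1.5-fold and 0 were lower by that much, where 12.6% of 13978 genes were higher and 8.08% lower. The filter on low counts kept a gene that reached about 10 UMIs, scaled to library size, in either group. A member that reached it in leukemic hosts alone could therefore only be higher, which over all cells applied to Gimap4 and Gimap3. Of the other 7 members 6 were past 1.5-fold. The median log2 fold of all 9 members, Gimap4 and Gimap3 included, was 2.22, and that of all genes 0.00.

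**Figure D1:**
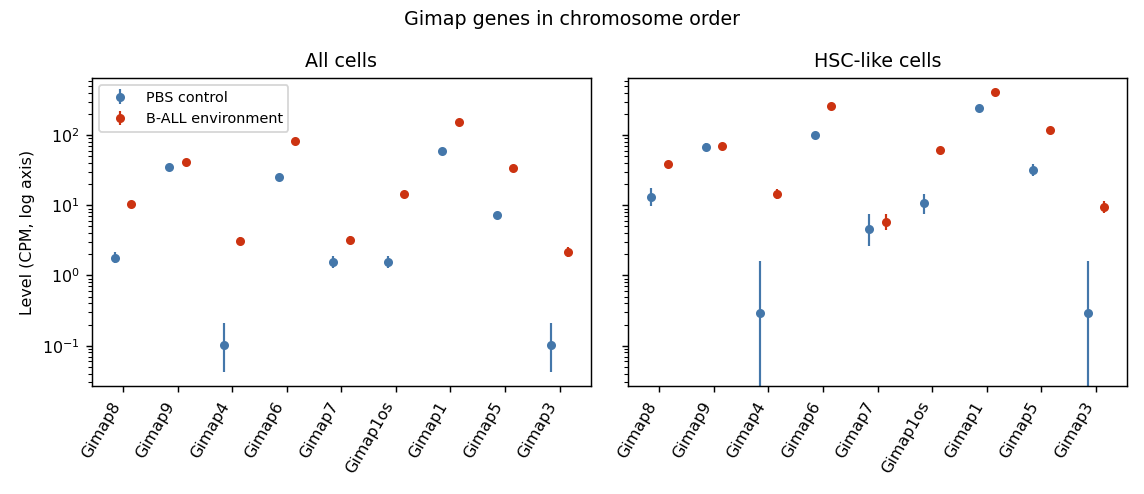
Level in CPM (log axis) of each Gimap gene in chromosome order, over all cells on the left and in HSC-like cells on the right, in the PBS control (blue) and leukemic hosts (red). Bars are exact 95% Poisson intervals for counting error; Gimap9 is nearly level between groups (36 and 42 CPM over all cells in whole CPM), while Gimap4 and Gimap3 have 7 control UMIs each.

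The groups differed in their mix of progenitors, and the fold over all cells depended on it. With 8 classes weighted equally in both groups, the log2 fold of the sum was 0.81, and 7 members were past 1.5-fold. They include Gimap4 and Gimap3, which passed the filter in leukemic hosts alone and so could only be higher. A share of all genes under these weights is not given, so this count has no background beside it. The log2 fold was then 1.63 for Gimap8, 1.38 for Gimap5, 2.47 for Gimap1os, 1.10 for Gimap6 and 0.70 for Gimap1, each over 1.5 times smaller as a fold than over all cells below. HSC-like cells, named from markers such as Mecom, Hlf and Procr, made up 7.43% of control cells (437 cells) and 21.9% of those of leukemic hosts (1287 cells). They held 18.4% of all Gimap UMIs in the control and 41.6% in leukemic hosts. Erythroid-like cells went the other way, from 24.4% of control cells (1438 cells) to 7.60% (447 cells), and held 17.8% and 3.74% of Gimap UMIs.

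Gimap1 gave the most UMIs of the family, with 3949 in the control and 11706 in leukemic hosts. Its level was 58.5 CPM (56.6 to 60.3) and 152 CPM (149 to 155), a log2 fold of 1.38 (1.33 to 1.43). Its share of all Gimap UMIs was 44.4% and 44.2%, nearly equal in the 2 groups. The antisense Gimap1os had 105 and 1132 UMIs, or 1.55 CPM (1.27 to 1.88) and 14.7 CPM (13.9 to 15.6). Its log2 fold was 3.24 (2.95 to 3.54), larger than that of Gimap1 with intervals that do not overlap. Leaving Gimap1os out gave a log2 fold of 1.34 for the sum.

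Gimap6, tied to autophagy in lymphocytes, had 1702 and 6361 UMIs. Its level was 25.2 CPM (24.0 to 26.4) in the control and 82.6 CPM (80.6 to 84.7) in leukemic hosts, a log2 fold of 1.71 (1.64 to 1.79). UMIs of Gimap6 were found in 1221 control cells and 2827 cells of leukemic hosts. Gimap5 had 489 and 2600 UMIs, or 7.24 CPM (6.61 to 7.91) and 33.8 CPM (32.5 to 35.1), a log2 fold of 2.22 (2.08 to 2.36). Its share of the family's UMIs was 5.50% in the control and 9.81% in leukemic hosts.

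Gimap8 had 121 UMIs in the control and 816 in leukemic hosts, a log2 fold of 2.56 (2.29 to 2.85). Gimap7 had 105 and 250, a log2 fold of 1.06 (0.73 to 1.41). Among the genes past 1.5-fold, Gimap7 had the smallest fold over all cells. With equal class weights, its log2 fold was 0.33, which is not past 1.5-fold.

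Gimap9 stood apart from the other members. It had 2403 UMIs in 1816 control cells and 3235 UMIs in 2223 cells of leukemic hosts. Its level was 35.6 CPM (34.2 to 37.0) and 42.0 CPM (40.6 to 43.5), a log2 fold of 0.24 (0.16 to 0.32), the smallest of the 9. Its share of the family's UMIs was 27.0% in the control and 12.2% in leukemic hosts. Without Gimap9 the log2 fold of the sum was 1.65 (1.61 to 1.69). The next smallest fold, that of Gimap7, had an interval that did not reach that of Gimap9.

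Gimap4 and Gimap3 were near the limit of detection in the control and counted in leukemic hosts. Gimap4 had 7 UMIs in 7 of 5882 control cells and 240 UMIs in 168 cells of leukemic hosts. Its level was 0.104 CPM (0.0417 to 0.213) and 3.12 CPM (2.74 to 3.54), a log2 fold of 4.91 (3.85 to 6.24), and of 3.77 with cells thinned to 3000 UMIs. Gimap3, a membrane-anchored relative of Gimap5 tied to mitochondria, had 7 UMIs in 7 control cells and 166 UMIs in 127 cells of leukemic hosts. That was 0.104 CPM (0.0417 to 0.213) and 2.16 CPM (1.84 to 2.51), a log2 fold of 4.38 (3.30 to 5.72). Most of these UMIs lay in a single class: HSC-like cells held 66.7% of the Gimap4 UMIs and 62.7% of the Gimap3 UMIs of leukemic hosts.

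Progenitor classes were clusters of cells on the authors' map, named from marker lists that hold no Gimap gene. Gimap6 was nevertheless among the 10 leading genes of an HSC-like cluster, so levels by class are a description of how the cells were grouped. In the PBS control the summed Gimap level was 470 CPM (448 to 494) in HSC-like cells, 284 CPM (265 to 303) in lymphoid-primed progenitor-like cells, 238 CPM (223 to 253) in multipotent progenitor-like cells and 204 CPM (191 to 218) in megakaryocyte-like cells. It was 188 CPM (169 to 209) in basophil and mast cell-like cells, 96.8 CPM (92.1 to 102) in erythroid-like cells, 40.8 CPM (36.1 to 46.0) in neutrophil progenitor-like cells and 23.6 CPM (21.3 to 26.0) in monocyte progenitor-like cells. The highest class was 19.9 times the lowest. Megakaryocyte-like and basophil and mast cell-like cells were the only neighbours in this order whose intervals overlapped.

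In leukemic hosts every one of these 8 classes was higher in the summed level. HSC-like cells were at 992 CPM (974 to 1011), multipotent progenitor-like cells at 518 CPM (499 to 537), lymphoid-primed progenitor-like cells at 389 CPM (368 to 412) and megakaryocyte-like cells at 294 CPM (285 to 304). Basophil and mast cell-like cells were at 244 CPM (220 to 269), erythroid-like cells at 170 CPM (160 to 181), neutrophil progenitor-like cells at 59.0 CPM (53.3 to 65.1) and monocyte progenitor-like cells at 45.3 CPM (41.9 to 48.9). No neighbours in this order had overlapping intervals, and the ratio of the highest to the lowest was 21.9. Multipotent and lymphoid-primed progenitor-like cells stood in the opposite order in the 2 groups.

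**Figure D2:**
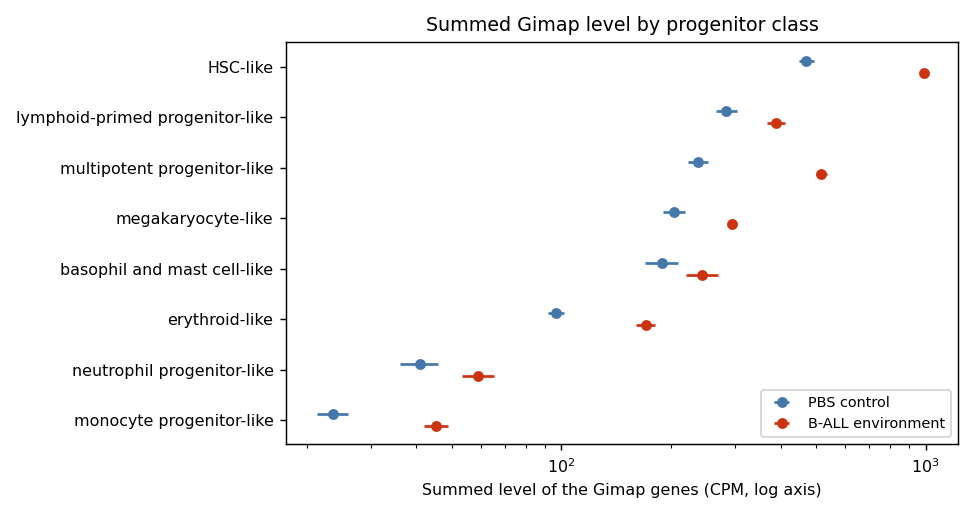
Summed level of the 9 Gimap genes (CPM, log axis) in 8 progenitor classes of the PBS control (blue) and leukemic hosts (red), with exact 95% Poisson intervals for counting error. HSC-like cells are highest in both groups (470 and 992 CPM) and monocyte progenitor-like cells lowest (23.6 and 45.3 CPM).

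The log2 fold of the sum was largest in multipotent progenitor-like cells, at 1.12 (1.02 to 1.23), and HSC-like cells, at 1.08 (1.00 to 1.15), whose intervals overlap. It was 0.94 (0.76 to 1.13) in monocyte progenitor-like cells, which overlaps both, and 0.82 (0.70 to 0.93) in erythroid-like cells. Neutrophil progenitor-like cells were at 0.53 (0.30 to 0.76), megakaryocyte-like cells at 0.53 (0.42 to 0.64), lymphoid-primed progenitor-like cells at 0.46 (0.33 to 0.58) and basophil and mast cell-like cells at 0.37 (0.16 to 0.58). Differences between classes in these folds were not tested, and their order depended on how cells were classed. With each cell classed by its own marker UMIs, the log2 fold was 0.027 in multipotent progenitor-like cells, then the smallest of the 8, 0.37 in HSC-like and 0.093 in megakaryocyte-like cells, while erythroid-like cells were highest at 0.91.

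**Figure D3:**
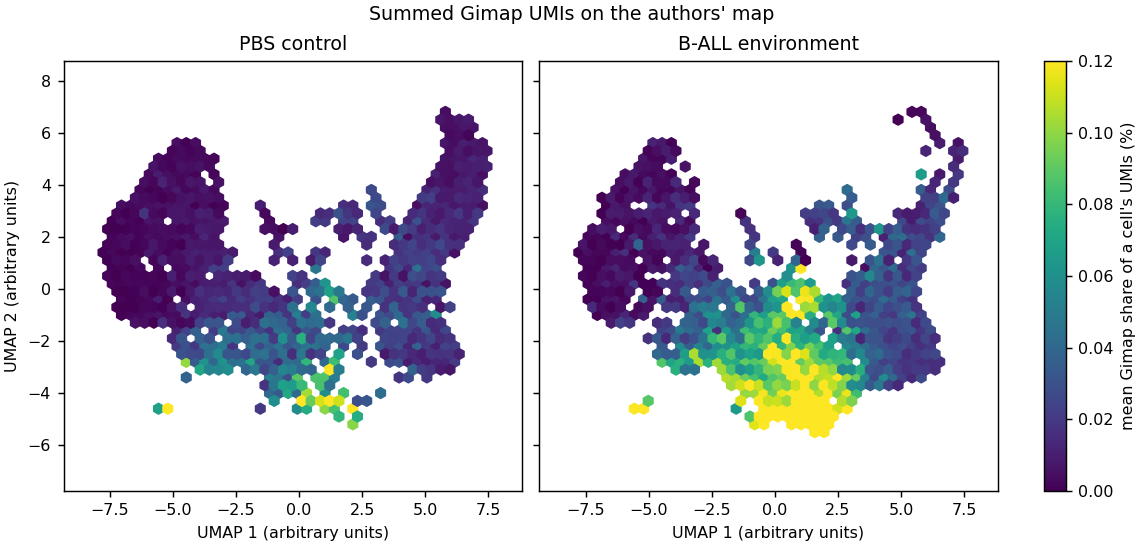
Mean percentage of a cell's UMIs that are Gimap UMIs (color) in hexagons of the authors' UMAP (both axes in arbitrary units), PBS control on the left and B-ALL environment on the right. The brightest hexagons lie at the lower centre of the map in both panels, and the panel of leukemic hosts has more of them; HSC-like cells number 437 in the control and 1287 in leukemic hosts.

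A small cluster of T and NK cell-like cells, which the lineage depletion should remove, had the highest level of all. It held 21 control cells with 167 Gimap UMIs (939 CPM, 802 to 1093) and 32 cells of leukemic hosts with 217 Gimap UMIs (1569 CPM, 1367 to 1793). Cells of that cluster, or with a T cell receptor UMI, held 279 of the control's Gimap UMIs (3.14%) and 496 of those of leukemic hosts (1.87%). Without them the log2 fold of the sum over all cells was 1.41, and that in HSC-like cells 1.07. The 8 members past 1.5-fold over all cells were also 8 without them.

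In HSC-like cells 7 of the 9 genes were higher by over 1.5-fold, against 14.4% of the genes kept there, and of the 7 that reached the filter in both groups, without Gimap4 and Gimap3, 5 were. In these cells the median log2 fold of the 9, Gimap4 and Gimap3 included, was 1.55. Gimap1 was at 243 CPM (844 UMIs) in the control and 416 CPM (4621 UMIs) in leukemic hosts, a log2 fold of 0.78 (0.67 to 0.88). Gimap6 was at 99.5 CPM (346 UMIs) and 260 CPM (2894 UMIs), a log2 fold of 1.39 (1.23 to 1.55). Gimap5 was at 31.6 CPM (110 UMIs) and 117 CPM (1300 UMIs), a log2 fold of 1.89 (1.60 to 2.18). The 3 folds have intervals that do not overlap, so within HSC-like cells the genes differed by unequal amounts.

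Gimap8 had 46 and 431 UMIs in HSC-like cells, a log2 fold of 1.55 (1.11 to 2.02). Gimap1os had 37 and 685, a log2 fold of 2.53 (2.06 to 3.05). Gimap9 was level between the groups, at 67.3 CPM (234 UMIs) and 68.9 CPM (766 UMIs), a log2 fold of 0.03 (-0.18 to 0.25). Gimap7, with 16 and 65 UMIs, had a log2 fold of 0.35 whose interval (-0.46 to 1.23) includes 0.

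Gimap4 had 1 UMI in 437 control HSC-like cells and 160 UMIs in 114 of 1287 HSC-like cells of leukemic hosts (8.86%, 7.36% to 10.5%). The log2 ratio was 5.65, with an interval from 3.15 to 10.96. Gimap3 had 1 UMI in the control and 104 in 82 HSC-like cells (6.37%, 5.10% to 7.85%), a log2 ratio of 5.02 (2.51 to 10.34). In monocyte progenitor-like cells, with 15331 and 18942 median UMIs per cell against 7630 and 7418 in HSC-like cells, each of the 2 genes had a UMI in 0 of 1047 control cells, which allows a share of up to 0.287%, and in 2 of 709 cells of leukemic hosts (0.282%). The share in HSC-like cells of leukemic hosts thus stood above that of a deeper class with next to none. In the few T and NK cell-like cells of leukemic hosts, Gimap4 was at 123 CPM (17 UMIs) and Gimap3 at 57.9 CPM (8 UMIs). These levels were above the 14.4 and 9.36 CPM of HSC-like cells of leukemic hosts.

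Of the HSC-like cells of leukemic hosts, 16 had a UMI of both genes. A Gimap3 UMI was thus in 14% of the cells with Gimap4, against 6.37% of all these cells, and a Gimap4 UMI in 19.5% of the cells with Gimap3, against 8.86% of all. The HSC marker list summed to 9578 CPM in those with a Gimap4 UMI and 7630 CPM in those without, and to 9807 and 7692 CPM for Gimap3. The sum of the 6 measured T and NK cell markers is mostly Nkg7, which gave 920 of its 946 UMIs in control HSC-like cells and 972 of 1148 in leukemic hosts. The sum was lower in leukemic hosts, at 272 and 103 CPM, while the other 5 markers together were at 7.37 and 16.1 CPM. Of these, Trbc1, Lck and Klrb1c were higher by over 1.5-fold, from 2, 23 and 1 UMIs in the control. The intervals of each of these levels overlap between the groups, with Lck at 6.52 CPM (4.13 to 9.78) and 10.1 CPM (8.34 to 12.2). Cd5 and Trbc2 had 0 UMIs in the control, which allows up to 1.05 CPM. In leukemic hosts they were at 0.913 CPM (10 UMIs) and 0.639 CPM (7 UMIs), so a difference is not shown for them. Without Nkg7 the list was at 5.31 CPM (1.95 to 11.6) in cells with a Gimap4 UMI and 17.3 CPM (14.8 to 20.1) in those without. For Gimap3 these levels were 19.5 CPM (10.7 to 32.7) and 15.8 CPM (13.5 to 18.5), which overlap. The level of the rest of the family was also higher in cells with the UMI, at 1223 against 966 CPM for Gimap4 and 1264 against 979 CPM for Gimap3. Median UMIs per cell were 7975 with and 7312 without Gimap4, in whole UMIs, and 7420 and 7418 for Gimap3.

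Cells held more different Gimap genes at once in leukemic hosts. At least 3 different members were found in 149 of 437 control HSC-like cells (34.1%) and in 985 of 1287 of leukemic hosts (76.5%). With each cell thinned to 3000 UMIs these were 43 cells (9.84%) and 433 cells (35.0%), the latter of 1236 cells deep enough. Gimap5 had a UMI in 22.7% and 55.7% of HSC-like cells, and in 11.0% and 28.8% after thinning. Gimap9 had one in 39.8% and 39.3%, and in 19.9% and 19.2% after thinning.

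HSC-like cells were made of 3 clusters. Socs2 and Ly6a were among the 10 leading genes of 2 of them. The one that also had Iigp1, Hlf and Mecom there, called the Iigp1 cluster, held 201 control cells and 678 cells of leukemic hosts, the one led by Slfn2 held 123 and 439, and the third, led by mitosis genes such as Ccnb2 and Cenpf, had 113 and 170. The summed Gimap level was 596 and 1155 CPM in the Iigp1 cluster, a log2 fold of 0.96 (0.86 to 1.06). It was 386 and 848 CPM in the Slfn2 cluster, at 1.14 (0.98 to 1.29), and 347 and 715 CPM in the mitotic cluster, at 1.04 (0.86 to 1.22). The folds overlapped in their intervals, while the level was highest in the Iigp1 cluster in both groups. Without the mitotic cluster, which has no HSC marker among its 10 leading genes, the fold of HSC-like cells was 1.02.

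Gimap5 had nearly the same fold in each of these clusters, at log2 1.78 (1.41 to 2.18) in the Iigp1 cluster, 1.78 (1.26 to 2.34) in the Slfn2 cluster and 1.78 (0.98 to 2.68) in the mitotic cluster. Gimap1 had 0.57 (0.43 to 0.72), 0.79 (0.58 to 0.99) and 1.08 (0.80 to 1.37) in the same order. Gimap9 had 0.12, 0.11 and 0.00, each with an interval that includes 0. An unnamed cluster next to these, led by Vldlr, Hlf and Gimap6 itself, had 249 and 383 cells and summed Gimap levels of 356 and 750 CPM, a log2 fold of 1.08 (0.97 to 1.19).

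Markers of HSCs and of other cell types also differed between the groups inside the HSC-like class. The 15 HSC markers summed to 1998 CPM in the control and 7714 CPM in leukemic hosts. Of the 15, 12 were higher by over 1.5-fold (14.4% of all genes kept there were), among them Ly6a at 61.6 and 183 CPM. The monocyte progenitor list was at 174 and 68.7 CPM and the neutrophil progenitor list at 2313 and 1070 CPM. Of their measured markers, 8 of 11 and 6 of 10 were lower by over 1.5-fold, where 7.79% of all genes kept were. Higher by that much were 2 and 1 of them. The T and NK cell list was at 272 and 103 CPM, with Nkg7 lower and Trbc1, Lck and Klrb1c higher by over 1.5-fold. The level intervals of Trbc1, Lck and Klrb1c overlap between the groups. For Cd5 and Trbc2, at 0 UMIs in the control, a difference is not shown. Their part in the Gimap difference was not tested.

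In multipotent progenitor-like cells 6 of the 7 members kept by the filter on low counts were higher by over 1.5-fold, against 9.95% of genes, and the exception was Gimap9. Gimap6 was at 39.9 and 123 CPM, a log2 fold of 1.62 (1.37 to 1.87), and Gimap1 at 125 and 249 CPM, at 0.99 (0.84 to 1.14). Gimap7 had 10 and 49 UMIs there, a log2 fold of 1.91 (0.91 to 3.05). Gimap3 had 0 UMIs in the control and 12 in leukemic hosts, which, set against 3 UMIs as the floor of the group, is at least 3.06-fold higher. Counting error in both groups allows a ratio from 2.13 upwards.

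Lymphoid-primed progenitor-like cells, led by Dntt and Flt3, had 4 of 7 members higher by over 1.5-fold, against 8.17% of genes, and 3 of the 6 that reached the filter in both groups, without Gimap1os. Of the 8 classes compared, they had the highest Gimap7, at 12.4 CPM (38 UMIs) in the control and 11.2 CPM (34 UMIs) in leukemic hosts, where multipotent progenitor-like cells (9.07 CPM) overlapped them. The few T and NK cell-like cells were above both, at 33.8 CPM (6 UMIs) and 65.1 CPM (9 UMIs). In lymphoid-primed progenitor-like cells Gimap7 thus had a log2 fold of -0.15 (-0.87 to 0.55), with an interval that includes 0. In the control the lymphoid-primed progenitor-like cells held 36.2% of all Gimap7 UMIs in 5.36% of the cells. Gimap6 was at 82.8 and 129 CPM, a log2 fold of 0.65 (0.41 to 0.88), and Gimap1 at 119 and 144 CPM, at 0.27 (0.07 to 0.48).

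Megakaryocyte-like cells had 6 of 9 members higher by over 1.5-fold, against 10.4% of genes, and 4 of the 7 that reached the filter in both groups, without Gimap4 and Gimap3. Gimap5 was at 15.5 and 29.7 CPM, a log2 fold of 0.94 (0.55 to 1.34). Gimap4 had 2 and 41 UMIs, a log2 ratio of 2.70 (0.75 to 5.79), and was the second most counted there of all classes, after HSC-like cells. Of the 2 clusters in this class, the one led by Timp3, Cavin2 and Vwf had 233 and 390 CPM in sum, a log2 fold of 0.74 (0.58 to 0.90), and held 37 of the 41 Gimap4 UMIs. The one led by Pf4, a platelet granule gene, had 186 and 221 CPM, a log2 fold of 0.25 (0.11 to 0.40).

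Erythroid-like cells had 5 of 6 members higher by over 1.5-fold, against 12.7% of genes, and 3 of the 4 that reached the filter in both groups, without Gimap8 and Gimap1os. Gimap1 was at 30.5 and 83.5 CPM, a log2 fold of 1.45 (1.27 to 1.64), and Gimap5 at 3.91 and 13.2 CPM, at 1.76 (1.26 to 2.26). Gimap9 was the exception and was lower, at 44.2 and 37.1 CPM, a log2 fold of -0.25 (-0.48 to -0.03). In these cells Gimap9 made up 724 of 1585 Gimap UMIs in the control and 216 of 992 in leukemic hosts. Within this class, the cluster led by Car1 had a log2 fold of the sum of 1.06 (0.87 to 1.26). The clusters led by Csrp3 and by Mt2 had smaller folds, at 0.47 (0.30 to 0.65) and 0.42 (0.13 to 0.70). Gimap6 folds in these were 0.29 (-0.14 to 0.72) and 0.37 (-0.30 to 1.01), with intervals that include 0.

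Monocyte progenitor-like cells, the class with the lowest level, had 5 of 6 members higher by over 1.5-fold, against 5.94% of genes, and 3 of the 4 that reached the filter in both groups, again without Gimap8 and Gimap1os. Gimap1 was at 6.26 and 17.8 CPM there, a log2 fold of 1.51 (1.18 to 1.85). Gimap8 had 0 and 15 UMIs, which by the same floor is at least 5.72-fold higher, while counting error in both groups allows a ratio from 4.10 upwards. In neutrophil progenitor-like cells 3 of 4 members were higher by over 1.5-fold, against 6.35% of genes, with Gimap5 past the filter in leukemic hosts alone, and in basophil and mast cell-like cells 1 of 4, Gimap6, against 9.00%. The members left out in these classes had too few UMIs, and those kept are not all members. No member kept by the filter was lower by over 1.5-fold in any of the 8 classes. The share of genes lower by that much was 7.79% in HSC-like, 5.98% in multipotent progenitor-like and 5.98% in lymphoid-primed progenitor-like cells. It was 11.3% in megakaryocyte-like, 9.28% in erythroid-like, 7.76% in monocyte progenitor-like, 7.41% in neutrophil progenitor-like and 7.55% in basophil and mast cell-like cells.

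**Figure D4:**
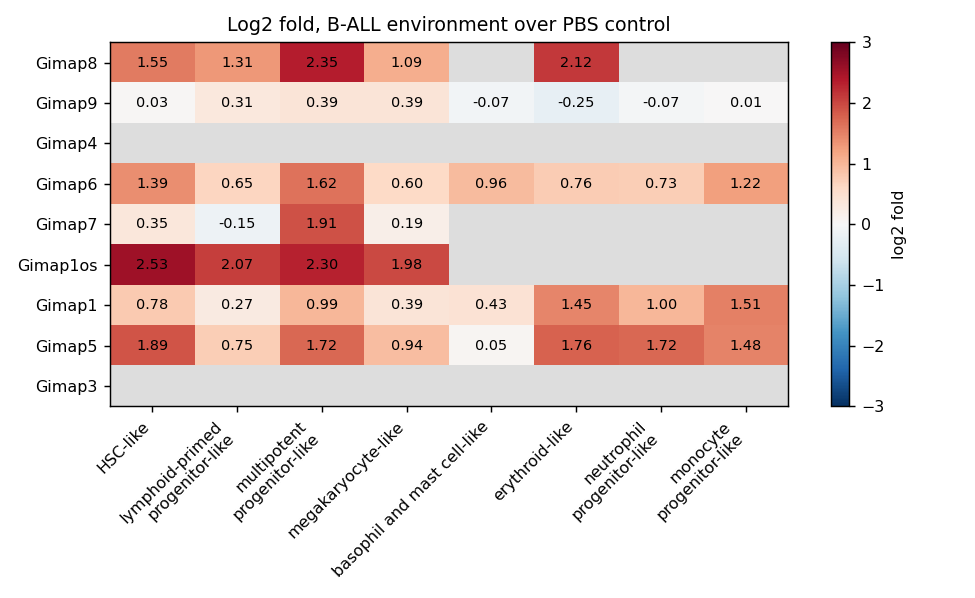
Log2 fold (color, with its value printed) of each Gimap gene in 8 progenitor classes, leukemic hosts over the PBS control; grey cells have 3 or fewer UMIs in at least 1 group. Gimap9 lies between -0.25 and 0.39 in the 8 classes, while Gimap6 lies between 0.60 and 1.62.

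The members also differed in how steeply they varied over the classes. In the control the highest class had 38.8 times the level of the lowest for Gimap1, 32.9 times for Gimap5 and 23.0 times for Gimap6. For Gimap9 this ratio was 5.80 in the control and 5.99 in leukemic hosts, where Gimap1, Gimap5 and Gimap6 had 23.3, 43.6 and 30.8. In the control, Gimap9 was at 67.3 CPM in HSC-like, 57.5 in basophil and mast cell-like, 53.4 in multipotent progenitor-like, 48.4 in lymphoid-primed progenitor-like and 44.2 CPM in erythroid-like cells, and each neighbour in that order overlapped the next. It was at 33.9 CPM in megakaryocyte-like, 23.0 in neutrophil progenitor-like and 11.6 CPM in monocyte progenitor-like cells, where neighbours did not overlap.

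Gimap1 in the control had a single highest class, HSC-like cells, while multipotent progenitor-like (125 CPM), lymphoid-primed (119 CPM), megakaryocyte-like (115 CPM) and basophil and mast cell-like cells (91.6 CPM) overlapped from neighbour to neighbour. Gimap5 was highest in HSC-like cells too, and megakaryocyte-like (15.5 CPM), lymphoid-primed (15.05 CPM), basophil and mast cell-like (13.8 CPM) and multipotent progenitor-like cells (11.6 CPM) overlapped likewise. Gimap6 in the control was at 99.5 CPM in HSC-like and 82.8 CPM in lymphoid-primed progenitor-like cells, with overlapping intervals. In leukemic hosts HSC-like cells alone were the highest of the 8 for Gimap1, Gimap5, Gimap6, Gimap8 and Gimap1os, with no overlap with the next class. The few T and NK cell-like cells were above them for Gimap6 (362 CPM), Gimap5 (152 CPM), Gimap1os (94.0 CPM) and Gimap8 (86.8 CPM). For Gimap1 they were below, at 354 CPM. Gimap9 in leukemic hosts was at 70.0 CPM in multipotent progenitor-like and 68.9 CPM in HSC-like cells, which overlap.

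Over the 16 sums of 8 classes in 2 groups, log2(CPM + 1) of Gimap6, Gimap1 and Gimap5 had Pearson r between 0.95 and 0.97 with each other, and Gimap9 between 0.83 and 0.89 with them. Among genes outside the family with a mean of at least 10 CPM over these sums, the most alike to the summed Gimap level were Msi2, an RNA-binding protein of HSCs (r = 0.987), the class I histocompatibility gene H2-Q4 (0.972), Anxa4 (0.962), A630072M18Rik (0.955) and Nfat5 (0.955). For Gimap9 they were Ddx58, the viral RNA sensor RIG-I (0.974), Spns2 (0.955), Zeb1 (0.95), Rtp4 (0.944) and Zfp933 (0.939). For Gimap5 they were Cers4 (0.979), Dst (0.975), Afdn (0.969), Nfat5 (0.965) and H2-Q4 (0.964). For Gimap6 the list was Ahdc1 (0.979), Msi2 (0.969), Tra2a (0.959), Peli1 (0.956) and Taz (0.956), and for Gimap1 Msi2 (0.977), Anxa4 (0.973), H2-Q4 (0.968), Cers4 (0.961) and Dst (0.952). The 16 sums share libraries, depth and the clustering, so these values describe likeness only. Stem cell genes outside that choice had r of 0.89 (Mecom), 0.86 (Hlf) and 0.74 (Ly6a) with the summed level, while Kit had 0.29 and Cd34 0.13. Mecom, Hlf and Ly6a are in the marker list that named the HSC-like class.

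Genes beside the array were compared with it. Of 12 annotated neighbours, 6 on each side, 7 were measured, and 4 were higher by over 1.5-fold over all cells (12.6% of all genes were) and 0 lower (8.08% were), with a median log2 fold of 0.73. Gm5111, on the Gimap8 side, was at 8.41 and 32.6 CPM, a log2 fold of 1.95 (1.82 to 2.09), and Repin1 at 16.2 and 27.8 CPM, at 0.78 (0.67 to 0.88). On the Gimap3 side, the paired membrane protein genes Tmem176b and Tmem176a had log2 folds of 0.73 (0.70 to 0.76) and 0.51 (0.47 to 0.55). Zfp775 and AI854703, chosen for mention after their values were seen, lie between Repin1 and Gimap8 and had log2 folds of 0.08 (-0.10 to 0.27) and 0.10 (-0.10 to 0.30), with intervals that include 0. Inside the array the transcript 4833403J16Rik, between Gimap5 and Gimap3, had 128 and 649 UMIs, a log2 fold of 2.15 (1.88 to 2.44). It too was chosen for mention after its value was seen.

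**Figure D5:**
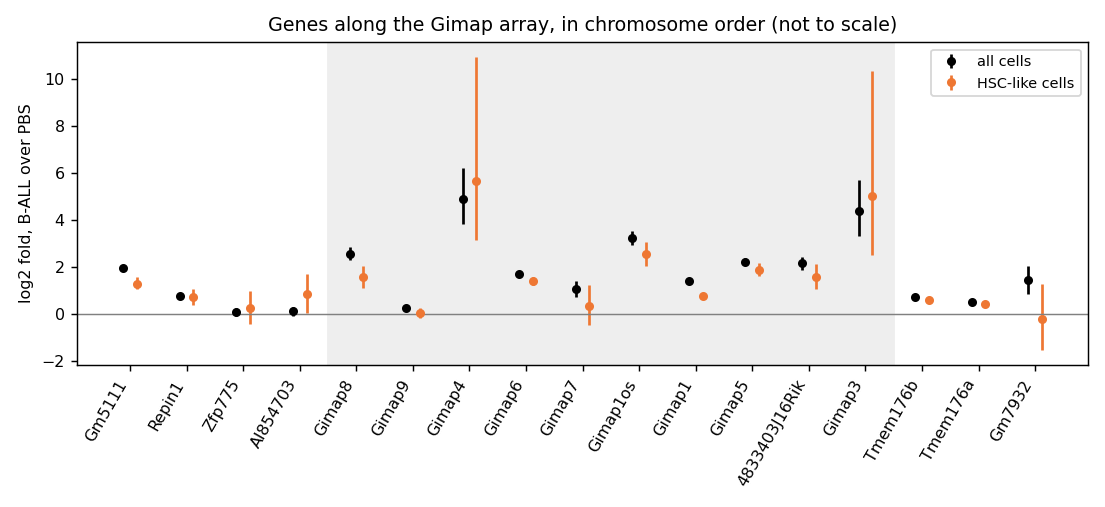
Log2 fold (leukemic hosts over the PBS control) of the measured genes along the Gimap array and on both sides of it, in chromosome order and not to scale, over all cells (black) and in HSC-like cells (orange), with exact 95% intervals for counting error. The shaded span is the array; inside it Gimap9 is nearest to 0, and outside it Gm5111 is highest at 1.95 over all cells.

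In HSC-like cells 3 of the 7 measured neighbours were higher by over 1.5-fold, against 14.4% of all genes, with a median log2 fold of 0.57. They were Gm5111, Repin1 and AI854703, the last with 16 and 91 UMIs, a log2 fold of 0.83 (0.05 to 1.70). Gm5111 had 142 and 1111 UMIs there, a log2 fold of 1.29 (1.04 to 1.55). Tmem176b, at 0.57 (0.49 to 0.65), and Repin1, at 0.71 (0.38 to 1.05), had smaller folds than Gimap6 in the same cells. Tmem176a was at 0.41 (0.30 to 0.52).

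Genes that work with or beside GIMAP proteins were counted from lists chosen by function. Of the 3 reported partners of Gimap5 none was past 1.5-fold over all cells. Mcl1, a survival protein of the BCL2 family, was at 175 and 151 CPM, a log2 fold of -0.21 (-0.25 to -0.17). The chaperone Hspa8 had -0.11 (-0.12 to -0.10), and the kinase Gsk3b 0.40 (0.35 to 0.44). In HSC-like cells, where Gimap5 was at 31.6 and 117 CPM, Mcl1 was at 218 and 174 CPM, a log2 fold of -0.32 (-0.45 to -0.20).

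Of 15 measured BCL2 family genes 3 were higher by over 1.5-fold over all cells (12.6% of all genes were) and 0 lower (8.08% were), with a median log2 fold of 0.08. The survival gene Bcl2l1 had 9.33 and 18.6 CPM, a log2 fold of 1.00 (0.86 to 1.14), and the death gene Bid -0.44 (-0.51 to -0.37). Bak1, a pore-forming death protein, had 57.1 and 66.3 CPM. In HSC-like cells 1 of the 11 kept by the filter was higher by over 1.5-fold, near the 14.4% of all genes there, and 0 were lower by that much. It was Bok, a pore-forming relative of Bak1 named for this after its value was seen, at 7.48 and 11.6 CPM, a log2 fold of 0.63 (0.02 to 1.30). Bcl2l1 was there at 12.4 and 18.5 CPM, at 0.58 (0.10 to 1.09), just under the threshold.

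Septins, cytoskeletal GTPases related in fold to GIMAP proteins, had 3 of 11 members higher (12.6% of all genes were) and 1 lower (8.08%) by over 1.5-fold over all cells, with a median log2 fold of 0.09. Sept1 was at 90.1 and 138 CPM, a log2 fold of 0.61 (0.57 to 0.66), and Sept8 at 42.8 and 26.2 CPM, at -0.71 (-0.79 to -0.62). Sept2, at -0.48 (-0.59 to -0.37), and Sept6, at 0.24 (0.20 to 0.29), were within 1.5-fold. In HSC-like cells 0 of 9 septins kept by the filter were past 1.5-fold in either direction, where 14.4% of all genes were higher and 7.79% lower.

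The interferon-inducible GTPases, large GTPases of cell-autonomous immunity such as the GBP and IRG proteins, had 7 of 16 members higher (12.6% of all genes were) and 1 lower (8.08%) by over 1.5-fold over all cells, with a median log2 fold of 0.51. Iigp1 was at 6.56 and 14.2 CPM, a log2 fold of 1.11 (0.95 to 1.27), Gbp5 at 0.96 (0.83 to 1.08), Gbp2 at 0.66 (0.54 to 0.79) and Igtp at 0.52 (0.40 to 0.65). In HSC-like cells 5 of 16 were higher (14.4% of all genes were) and 1 lower (7.79%), with a median of 0.15. The median of the Gimap genes in the same cells was 1.55. That value includes Gimap4 and Gimap3, which passed the filter in leukemic hosts alone and so could only be higher. Iigp1 was at 67.6 and 63.2 CPM there, a log2 fold of -0.10 (-0.31 to 0.12). In the Iigp1 cluster of HSC-like cells these GTPases, Iigp1 among them, summed to 730 and 675 CPM. This was a log2 fold of -0.11 (-0.21 to -0.02), where the Gimap sum had 0.96. In the Slfn2 and mitotic clusters they had 0.32 (0.16 to 0.50) and 0.26 (0.08 to 0.44).

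Genes of lymphocyte quiescence, such as Klf2 and Foxo1, had 5 of 17 members higher (12.6% of all genes were) and 1 lower (8.08%) by over 1.5-fold over all cells, with a median log2 fold of 0.06. Slfn2, which keeps resting T cells quiescent, was at 9.07 and 75.8 CPM, a log2 fold of 3.06 (2.94 to 3.19), while in HSC-like cells it had 23.0 and 251 CPM, at 3.44 (3.12 to 3.78). The transcription factor gene Ets1 had 507 and 1118 UMIs over all cells, a log2 fold of 0.95 (0.80 to 1.11). Btg1, an antiproliferative gene, had -0.47 (-0.53 to -0.41) and Cd27, a receptor of the TNF family, 0.31 (0.27 to 0.35). In HSC-like cells 5 of 15 were higher (14.4% of all genes were) and 3 lower (7.79%), with a median of -0.12. The higher ones were Klf2, Foxo1, Tcf7, Ets1 and Slfn2, of which Klf2, Foxo1 and Tcf7 were named after their values were seen.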

How the data were processed

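Host marrow progenitors were measured with the Chromium 3' kit, version 3, per the labels. Per the submitters' processing notes, Cell Ranger 4, Seurat 4.0.1 and mm10 were used. The deposited table gives, for each cell, the UMI counts of all genes without normalization by the authors. They summed to the deposited total in 100% of cells, and the least widespread gene was seen in 33 cells. The UMAP coordinates are deposited scores of the authors' map, and the group prefix of a cell is the other deposited label used. Its value for treated cells was read as standing for the tumor environment. The authors' filters are not given in the sources used here. All columns were matched to groups.

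Counts were summed per class and group, scaled by TMM and filtered with filterByExpr (edgeR 4.0.16, R 4.3.3). Log2 folds have exact 95% conditional intervals, levels exact Poisson and shares exact Clopper-Pearson intervals (scipy 1.17.1). Intervals and floors (3 UMIs for a group) cover counting error only. The scripts were tested on simulated data. Leiden clusters on the authors' UMAP (scanpy 1.11.5, igraph 0.11.9, 30 neighbours, resolution 0.3) took the name of the marker list most enriched in them, if its mean log2 enrichment with 10 CPM added reached 0.5 and 3 or more of its markers were seen in 10% of the cells. Clusters that missed this, or whose 10 leading genes held more markers of another list, stayed unnamed. Unnamed clusters held 1090 control cells (18.5%) and 1161 cells of leukemic hosts (19.7%), which are in none of the classes compared. Classes were compared where each group had 30 cells or more, which left 8. No cell was removed as a doublet. Thinning used seed 1.

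Every Gimap gene was named. Up to 4 members of each other list were named by size of fold, and the 5 genes most alike by Pearson r, each with a mean of at least 10 CPM. Kit, Ptprc and Ly6a served as label checks. The members and lists were chosen with earlier results of these data known. Alternatives were DESeq2 1.42.0 size factors, library totals, thinned cells, equal class weights, other cell sets, other clusters, no gene filter and a 2-fold threshold.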

Additional observations from a re-analysis of the deposited data

Results flagged for a closer look

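Gimap9 was higher in 2 progenitor classes of leukemic hosts and lower in 1, each with a counting interval clear of 0. Its log2 fold was 0.39 (0.13 to 0.67) in megakaryocyte-like cells, with 142 UMIs in the PBS control and 590 in leukemic hosts. It was 0.39 (0.15 to 0.64) in multipotent progenitor-like cells too, with 221 and 378 UMIs. It was -0.25 (-0.48 to -0.03) in erythroid-like cells, with 724 and 216 UMIs. The difference between the classes was not tested. In erythroid-like cells the 3 clusters had log2 folds of -0.21, -0.25 and -0.49 in the clusters led by Csrp3, by Car1 and by Mt2, and of these only the last had an interval clear of 0 (-0.97 to -0.04). Megakaryocyte-like cells differed in depth between the groups, with a median of 7561 UMIs per cell in the control and 12752 in leukemic hosts.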

How the results depend on the processing

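The log2 fold of the Gimap sum over all cells, 1.39, was 1.42 with library totals, 1.49 with cells thinned to 3000 UMIs and 0.81 with equal class weights. Thinning gave 0.59 in lymphoid-primed progenitor-like and 0.72 in megakaryocyte-like cells. Finer clusters gave 1.13 in monocyte and 1.01 in multipotent progenitor-like cells. When each cell was classed by its own marker UMIs, the fold was 0.37 in HSC-like, 0.093 in megakaryocyte-like, 0.72 in monocyte progenitor-like and 0.027 in multipotent progenitor-like cells. That rule gave 86 control HSC-like cells and 2237 in leukemic hosts, and the cause of the smaller folds was not tested. Of the other values of the sum and of the member counts, 56 stayed within the counting interval or within 1.5 times the count. For single members 52 values stayed and 11 moved, with no change of sign. Those that moved were, with equal class weights, Gimap8 (1.63), Gimap9 (0.12), Gimap6 (1.10), Gimap7 (0.33), Gimap1os (2.47), Gimap1 (0.70) and Gimap5 (1.38), and, with thinned cells, Gimap8 (2.28), Gimap4 (3.77), Gimap6 (1.86) and Gimap1 (1.43). The choices to leave out the mitotic HSC-like cluster and the early erythroid-like cluster were made after seeing the data. No paired analysis was possible because cells carry no replicate number, and for the same reason no sample could be left out. Depth limits Gimap4 and Gimap3, which have 3 or fewer UMIs in at least 1 group of each of the 8 classes, and Gimap7, which does in 4 of them. Gimap1os is limited likewise in basophil and mast cell-like, erythroid-like, monocyte progenitor-like and neutrophil progenitor-like cells. The same holds for Gimap8 in these classes other than erythroid-like cells.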
